A study of Mus musculus with 4 samples.

Results

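The clustered histone genes are the 69 of 55450 gene rows whose symbol starts with Hist1h, Hist2h, Hist3h or Hist4h, leaving out 1 row that its symbol marks as a pseudogene. The rows were picked by symbol and not by their reads, but the group was chosen with earlier results of these data known. They comprise 6 genes of the linker histone H1 and 20 H2A, 18 H2B, 12 H3 and 13 H4 genes of the nucleosome core. In the GENCODE M21 annotation of mouse build GRCm38, 56 of them lie on chromosome 13, 10 on chromosome 3, 2 on chromosome 11 and 1 on chromosome 6. The annotation types 67 of them as protein-coding. The other two, Hist1h2aj and Hist1h2al, are typed as pseudogenes and were kept because the symbol rule includes them.

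The libraries came from CD11c+ cells, taken with magnetic beads from mesenteric lymph nodes of wild-type C57BL/6J mice. Each sample pooled 2 nodes, and its cells went into a pair of wells, the control receiving water and the other 10 µM of an agonist of Ffar2, a receptor for short-chain fatty acids. All wells held RPMI medium with 10% fetal bovine serum for 6 h, so the controls had been cultured too. The series title connects Ffar2 with IL-27 from dendritic cells and with exhaustion of CD8+ T cells in colorectal cancer, and the wells address what the agonist did to gene expression in the enriched cells. There were 2 control and 2 agonist libraries, both numbered 2 and 3, and a shared number is called a pool here. The chemical name of the agonist and the age of the mice were not given in the sources used here. In pool 2 both wells held reads of Xist, the transcript of the inactive X chromosome (17776 and 21194), and none of the Y-linked gene Ddx3y. In pool 3 it was the reverse, with 18752 and 21461 reads of Ddx3y and none of Xist. Pool and sex therefore cannot be told apart.

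Most histone protein for new chromatin comes from clustered genes, which are transcribed mainly in S phase. Their messages usually lack a poly(A) tail and end just after a short stem-loop that the protein Slbp binds. Some of the genes can also be read into another, polyadenylated message that runs past the stem-loop, and this form is known from cells that have left the cell cycle. Replacement histones such as H3.3 and H2A.Z come from genes outside the clusters, carry poly(A) tails and are made throughout the cell cycle. The SMART-seq v4 kit used here starts cDNA synthesis from the poly(A) tail, so a library made with it sees the tailless form poorly.

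The stem-loop that marks these messages was found, as 16 bases with a fully paired stem around a short loop, in the annotated transcripts of 44 of the 69 genes. It began 22 to 59 bases after the stop codon, with a median of 32. The 5 stretches printed here show some of its variants, in the members described most and in 2 other H4 genes. They come from GENCODE M21 transcripts, 5′ to 3′ on the coding strand, with the stem-loop in capitals.
Hist3h2a: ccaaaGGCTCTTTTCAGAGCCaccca
Hist1h1c: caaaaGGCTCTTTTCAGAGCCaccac
Hist1h4d: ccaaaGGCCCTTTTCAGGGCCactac
Hist1h4j: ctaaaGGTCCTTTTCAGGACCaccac
Hist2h4: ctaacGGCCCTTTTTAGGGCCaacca
The left arm of the stem separated the H4 genes from the other classes. It read GGCTCT in all 33 stem-loops of H1, H2A, H2B and H3 genes. Among the 11 stem-loops of H4 genes it read GGCCCT in 9 and GGTCCT in 2. Hist1h4j was chosen for display after its values were seen. In Hist3h2a the annotated transcript goes on for 1643 bases after the stem-loop, in Hist2h4 for 1257, in Hist1h1c for 840, in Hist1h4d for 770 and in Hist1h4j for 385.

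Few reads fell on these genes. Summed over the 69 genes pool 2 had 3046 control and 5071 agonist reads and pool 3 had 4484 and 4211. As CPM, which are reads scaled to library size with TMM factors, the sums were 70 and 97.5 in pool 2 and 85.8 and 74.2 in pool 3. Agonist replicate 2 had the highest sum and control replicate 2 the lowest, so the groups overlapped. Of the 69 genes, 48 had a read in at least 1 library and 21 had none in any. A count of 0 allows up to 3 reads per library, but only of reads that could be assigned to the gene. Among the 21 were Hist2h2aa1, Hist2h2aa2, Hist2h3c1, Hist2h3b and Hist2h2bb, with 100% of their exon bases overlapped by other annotated genes. Reads that overlap several genes were set aside, so a 0 there does not bound the level. At least 10 reads in every library were found for 16 genes, and at least 100 in every library for 6. Hist3h2a, Hist1h2bc, Hist1h1c, Hist2h2be and Hist1h4d together held 75.3% of all reads on clustered histone genes.

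The replacement histone genes together were read far more than the clustered ones, mostly through H3f3b, H2afz and H3f3a. The 11 genes of that list summed to 2220 CPM on average over the 4 libraries and the clustered genes to 81.9 CPM, a ratio of 27.1. Clustered genes made up 2.81% (control) and 4.35% (agonist) of the joint CPM sum in pool 2, and 3.82% and 3.33% in pool 3. Levels of different genes are compared here per kilobase of exon. On that scale H3f3b, which encodes H3.3, stood at 487 CPM per kilobase and H2afz, which encodes H2A.Z, at 249. The highest clustered gene, Hist3h2a, stood at 10.9 CPM per kilobase, close to Cenpa, the histone H3 of centromeres, at 11.2. H3f3a stood at 63.9. All others of the replacement list were below Hist3h2a, from H2afv at 9.06 down to H1fx at 0.00395.

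The 5 classes were unequal in reads, whereas a nucleosome holds the 4 core histones in equal amounts. These reads do not measure histone amounts. The kit sees the tailless form poorly, and replacement genes such as H3f3b lie outside the group. Per kilobase of exon, summed over a class and averaged over libraries, H2A stood at 1.82 CPM, H4 at 1.56, H2B at 1.29, H1 at 1.11 and H3 at 0.0522. H3 genes held 0.631% of the reads on clustered histone genes, against 31.7% for H2B, 29.2% for H2A, 20.4% for H4 and 18.0% for H1. A single gene carried the H2A class, since Hist3h2a had 99.3% of its reads. Hist1h1c had 78.2% of the H1 reads. In H2B, H3 and H4 the leading genes were Hist1h2bc with 44.8% of the class reads, Hist1h3e with 36.8% and Hist1h4d with 35.3%. The 21 genes without a read were 13 of the 20 H2A genes, 4 of the 18 H2B genes and 4 of the 12 H3 genes, while every H1 and H4 gene had at least 1 read.

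**Figure D1:**
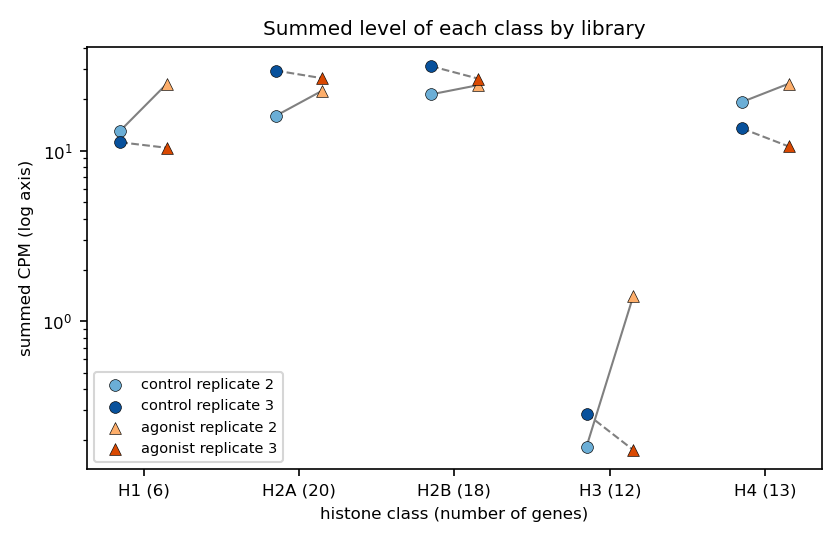
Summed level of each histone class in each library, in CPM on a log axis, with the number of genes in brackets. Circles are control and triangles agonist libraries, and lines join the wells of one pool (solid for pool 2, dashed for pool 3): the solid lines rise in all 5 classes and the dashed lines fall in all 5.

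The annotated 3′ end went along with the number of reads. Among the 22 genes whose annotated transcript holds the stem-loop and at least 100 bases after it, 1 had no reads, 11 had at least 100 reads over the 4 libraries, and the median was 116.5 reads. The 22 genes with a stem-loop and fewer than 100 bases after it had a median of 5 reads, 6 of them had none and 3 had at least 100. No stem-loop was found in the transcripts of 25 genes, of which 14 had no reads. For 15 of those 25 the annotated model stops within 2 bases of the stop codon, so the element could not be looked for. The 3 groups held 68.5%, 3.82% and 27.7% of the reads on clustered histone genes. Of the last group, 4 genes have models that run more than 700 bases past the stop codon, and these held 25.0% of the reads. Hist1h2bc and Hist2h2be are the ones among them with reads, running 742 and 2192 bases past it.

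The letters AATAAA, the core of the poly(A) signal, stood after the stop codon in the longest model of 19 genes, which held 79.0% of the reads, with a median of 52. The other 50 genes held 21.0% of the reads, with a median of 5. These searches describe the annotation. A longer model has more exon to collect reads, and the annotation of a long 3′ end may itself rest on polyadenylated messages, so the order of cause was not tested.

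**Figure D2:**
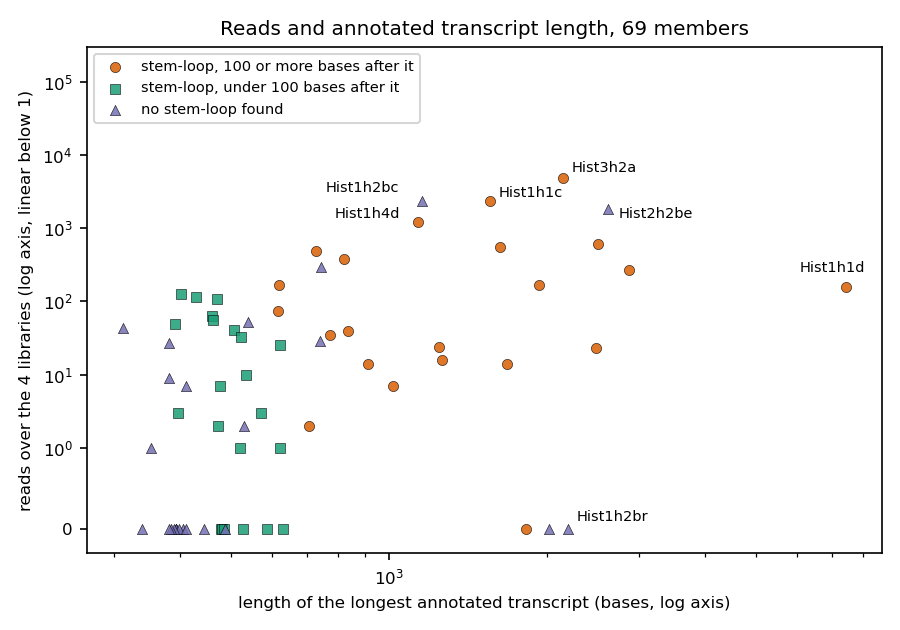
Reads over the 4 libraries (log axis, linear below 1) against the length of the longest annotated transcript in bases (log axis) for the 69 genes, one point per gene. Circles are genes with a stem-loop and at least 100 bases after it, squares those with fewer bases after it, triangles those with no stem-loop found. Most genes with a long tail sit above 10 reads and most short models without a stem-loop sit at 0.

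Sequence shared between copies and overlap with other genes can also lower a count, since reads that align to several places or overlap several genes were set aside in the deposited files. Such reads made up 6.54% to 6.98% and 5.77% to 6.5% of each library's reads over all genes. Among the 17 clustered histone genes with at least 80% of their 50-base words found in another annotated gene, 11 had no reads and the median was 0. Among the 14 genes with under 20% of words shared, 1 had no reads, and the median was 278.5. The one without reads was Hist1h2aa, named after its value was seen. Sharing went along with the length of the model. The median longest transcript was 411 bases in the group with at least 80% shared and 1595 in the group with under 20%. In the 3 groups by 3′ end above, in their order, the median share of words was 23.3%, 59.9% and 71.5%. The separate parts of sharing, length and 3′ end were not tested. Of the 20 H2A genes, 19 contain an annotated miRNA gene on the opposite strand inside their exons, which none of the 49 genes of other classes does. These miRNA genes covered 109 to 144 exon bases of the H2A gene, or 5.56% to 35.9% of its exon with a median of 28.8%, and had 0 reads themselves. With all other overlapping genes counted too, 9.91% to 100% of the exon bases of these 19 genes were overlapped. Whether the counting used strand was not given, and the kit does not mark it. How far shared sequence or overlap lowered the H2A counts was not tested.

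Hist3h2a (ENSMUSG00000078851.4, chromosome 11, 58954685 to 58956830, plus strand), an H2A gene in the small cluster there, was the most read gene of the group. In pool 2 it had 684 control and 1163 agonist reads, and in pool 3 it had 1529 and 1508. Control replicate 2 was the low library and the groups overlapped. Control wells averaged 22.5 ± 9.59 CPM (SD, n = 2) and agonist wells 24.5 ± 2.98 CPM (SD, n = 2), a fitted log2 fold change of 0.12 (SE 0.39). As for every other tested gene of the group, the adjusted p in edgeR's quasi-likelihood test was 0.9999. Its exons overlap Trim17 on the same strand and an antisense miRNA gene, over 33.0% of its bases. Trim17 had between 68 and 124 reads.

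Hist2h2aa1, in the cluster on chromosome 3, had no reads in any library, and all 586 of its exon bases are overlapped by other annotated genes. One of these, Gm20633 on the opposite strand, had 56 to 163 reads per library and was named after its values were seen. Hist1h2ac had 11 control and 3 agonist reads in pool 2 and 9 and 0 in pool 3, and Hist1h2ad had 3 reads, all in control replicate 3. Neither passed the expression filter. The groups did not overlap for Hist1h2ac, but at these counts no fold change is given.

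Among H2B genes Hist1h2bc (ENSMUSG00000018102.5, chromosome 13, 23684199 to 23692908, plus strand) had the most reads. Its transcript has 2 exons, and no stem-loop was found in it. In pool 2 it had 169 control and 611 agonist reads, in pool 3 it had 734 and 874, and control replicate 2 stood apart from the other three. The log2 ratio of agonist to control was 1.59 in pool 2 and 0.13 in pool 3. The fitted value was 0.60 (SE 0.61).

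Hist2h2be (ENSMUSG00000068854.7, chromosome 3, 96221119 to 96223738, plus strand) was the gene with the smallest p of the group in the agonist comparison. It had 538 control and 304 agonist reads in pool 2 and 611 and 357 in pool 3. Both agonist libraries were below both controls, and the wells of each group differed little. Control wells averaged 12.0 ± 0.467 CPM (SD, n = 2) and agonist wells 6.07 ± 0.316 CPM (SD, n = 2), with log2 ratios of -1.07 in pool 2 and -0.89 in pool 3. In the fit the log2 fold change was -0.99 (SE 0.35), with a 95% interval of -1.84 to -0.14, and the unadjusted p was 0.0293 in edgeR's test. After adjustment over 18297 genes p was 0.9999, so the difference did not pass the threshold. None of the gene's 50-base words occurs in another annotated gene and no other gene overlaps its exons.

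Among plasma cell markers, Igha and Jchain were at lower levels in the agonist wells of both pools, while the other 5 tested had fitted values above 0 and the list's median log2 fold change was 0.30. The 8 plasma cell markers summed to 495 and 302 CPM in the control and 152 and 74.7 CPM in the agonist libraries. Most of that came from Igha, the IgA heavy chain, which stood at 394 and 164 CPM in the control and 50 and 16.8 CPM in the agonist wells. T cell markers were lower with agonist in both pools for 12 of 12 genes, where 27.8% of all tested genes were. Their median log2 fold change was -0.56, and they summed to 938 and 472 CPM against 656 and 309 CPM. With pool as a term in edgeR's fit, 6 of the 12 were lower at an unadjusted p under 0.05 (1.84% of all tested genes). None were higher (1.69%), and 0 passed the threshold. B cell markers summed to 1910 and 1180 CPM against 1720 and 953 CPM, with 8 of 10 lower in both pools and 0 at that p. Their part in the histone values was not tested. In these bulk libraries, fewer cells of a type and less RNA per cell cannot be told apart.

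Hist1h2bg had 10 control and 69 agonist reads in pool 2 and 44 and 44 in pool 3, with log2 ratios of 2.35 in pool 2 and -0.11 in pool 3. Hist1h2bm had 6 control and 13 agonist reads in pool 2 and 0 and 14 in pool 3, so both agonist libraries were higher, at counts near the filter. The fitted log2 fold change was 1.85 (SE 1.59). Hist1h2be, chosen after its values were seen, had 143 control and 153 agonist reads in pool 2 and 179 and 142 in pool 3, and its 2 agonist levels in CPM were below both controls by a small margin (2.94 and 2.50 against 3.28 and 3.43).

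**Figure D3:**
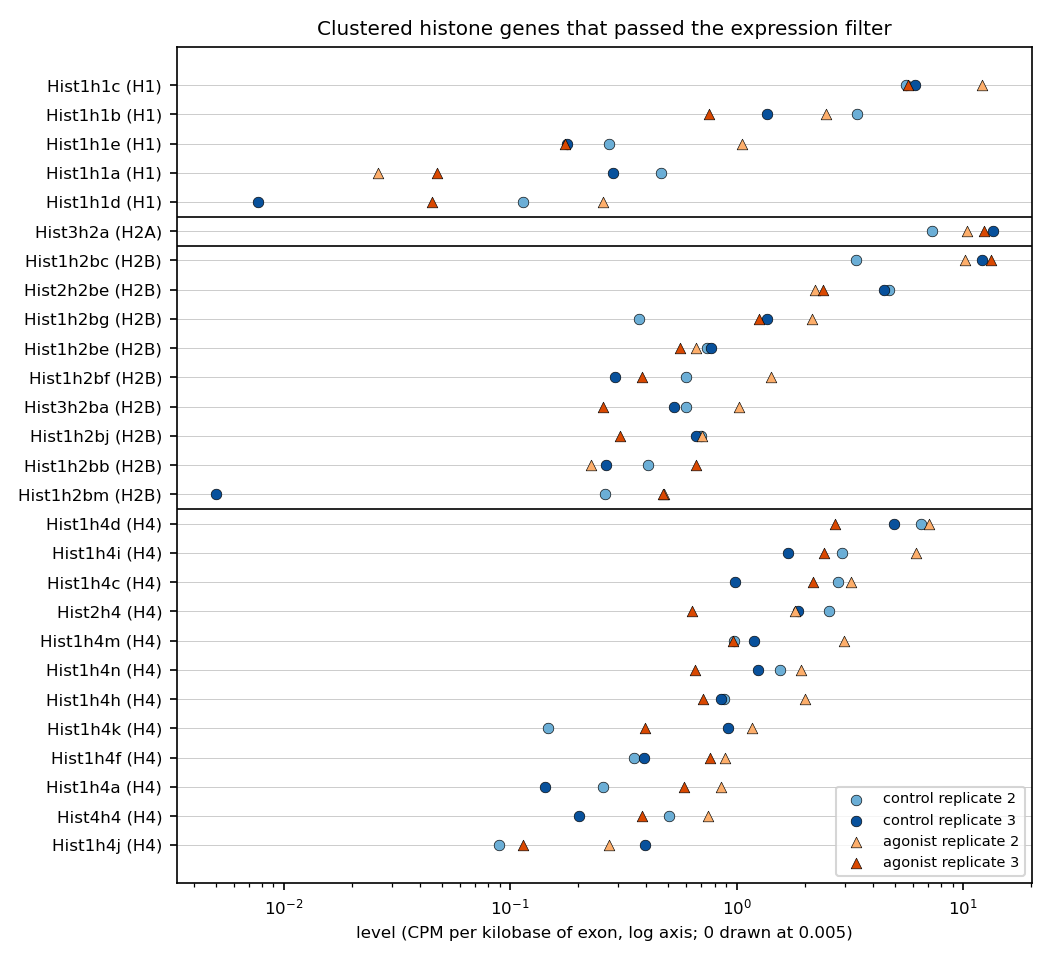
Level of each of the 27 clustered histone genes that passed the expression filter, in CPM per kilobase of exon on a log axis (a level of 0 is drawn at 0.005), by library and ordered within class. Circles are control and triangles agonist libraries. Hist2h2be has both agonist libraries at 2.23 and 2.40, below both controls at 4.72 and 4.46, and the light triangle of agonist replicate 2 is the rightmost point for 18 of the 27 genes.

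H2A and H2B genes often lie back to back, so that a short stretch between them serves as the promoter of both. There were 13 such pairs in the group, with starts 176 to 306 bases apart. The H2B gene had more reads in 10 pairs and both had none in 3, so the H2A gene had more reads in 0 of 13. The H2A gene had no reads in 8 pairs and at most 23 reads in any. Hist1h2ac had 23 reads over the 4 libraries where its partner Hist1h2bc had 2388. Hist2h2ac had 1 where Hist2h2be had 1810, and Hist1h2ae had 2 where Hist1h2bg had 167, both H2A genes named after their values were seen. All 13 paired H2A genes carry the antisense miRNA annotation described above, and 7 of them share over 75% of their words with other genes. Hist1h2ac shares 14.06% of its words and has 9.91% of its exon bases overlapped. Of its 2482 exon bases, 2058 lie after the stop codon. The part of sharing or overlap in its count was not tested.

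The stretches between the partners of the pairs with the most H2B reads are printed here because one promoter region stands beside such unequal counts. They come from RefSeq promoter windows of GRCm38.p6, read 5′ to 3′ on the minus strand, towards the H2A gene. Capitals mark the letters CCAAT and TATAAA and ATTTGCAT on either strand, so that ATTGG is CCAAT and ATGCAAAT is ATTTGCAT on the other strand.
Hist1h2ac and Hist1h2bc, chr13:23683960-23684198: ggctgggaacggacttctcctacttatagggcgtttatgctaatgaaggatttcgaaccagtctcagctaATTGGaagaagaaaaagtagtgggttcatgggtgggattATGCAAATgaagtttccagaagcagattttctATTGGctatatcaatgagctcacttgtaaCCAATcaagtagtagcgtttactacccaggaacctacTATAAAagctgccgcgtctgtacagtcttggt
Hist2h2ac and Hist2h2be, chr3:96220881-96221118: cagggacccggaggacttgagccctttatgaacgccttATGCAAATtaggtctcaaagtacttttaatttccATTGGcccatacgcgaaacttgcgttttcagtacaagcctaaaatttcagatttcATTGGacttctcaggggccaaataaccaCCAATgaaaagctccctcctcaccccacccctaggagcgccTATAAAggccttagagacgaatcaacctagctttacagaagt
Each stretch held 3 CCAAT, 1 TATAAA on the strand of the H2A gene and 1 octamer ATTTGCAT. The octamer is the letters bound by the Oct factors, and CCAAT those bound by NF-Y.

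Across the group, 61 genes had a RefSeq promoter window, which reaches from 250 bases before to 50 after the gene's start. CCAAT stood on either strand in 52 of them (85.2%), against 37.4% of all 32851 windows. All windows of H1, H2A, H2B and H3 genes held it, but only 3 of 12 H4 windows did. TATAAA stood in 57.4% of the histone windows and in 13.6% of all windows. The octamer was found in 7 of 17 H2A and 7 of 16 H2B windows and in no window of the other classes, against 1.74% of all windows. AAACACA, the box named for H1 promoters, stood in 5 of 6 H1 windows and in 7.18% of all. Where both genes of a divergent pair have a window, the windows overlap, so the same match can count for both. A motif match describes the letters and says nothing of binding in these cells.

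**Figure D4:**
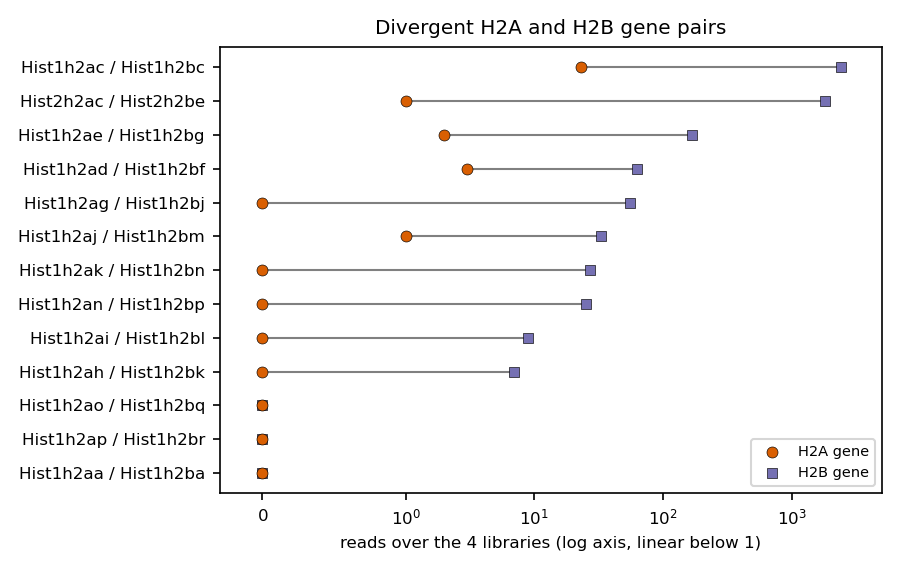
Reads over the 4 libraries (log axis, linear below 1) of the H2A gene (circle) and the H2B gene (square) of the 13 divergent pairs, joined by a line. The square lies to the right of the circle in 10 pairs and both lie at 0 in the lowest 3.

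Of the H1 genes, which encode the histone that binds linker DNA between nucleosomes, Hist1h1c (ENSMUSG00000036181.2, chromosome 13, 23738808 to 23740367, plus strand) led at 7.38 CPM per kilobase. It had 382 control and 981 agonist reads in pool 2 and 499 and 504 in pool 3. Agonist replicate 2 stood alone at 18.9 CPM, while the other three lay close together at 8.77, 9.55 and 8.89 CPM. The log2 ratio was 1.10 in pool 2 and -0.10 in pool 3, and the fitted log2 fold change was 0.60 (SE 0.45). Without agonist replicate 2 it was -0.01.

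Hist1h1e followed the same pattern, with 23 control and 106 agonist reads in pool 2 and 18 and 19 in pool 3. The fitted log2 fold change was 1.44 (SE 1), and -0.34 without agonist replicate 2. Hist1h1d had 37 control and 99 agonist reads in pool 2 and 3 and 19 in pool 3, so pool 2 was higher than pool 3 in both conditions. Hist1h1b had 110 control and 96 agonist reads in pool 2 and 53 and 32 in pool 3, lower with agonist in CPM in both pools by less than the difference between pools.

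Hist1h1a, on chromosome 13 from 23763666 to 23764406, went the other way at very low counts. It had 15 control and 1 agonist reads in pool 2 and 11 and 2 in pool 3, so the groups did not overlap. Per scaled library size the control wells held 9.82 times the reads of the agonist wells, with an exact 95% binomial interval of 3.01 to 50.7 that covers counting error only. In the fit the log2 fold change was -3.23 (SE 1.24), with a 95% interval of -6.24 to -0.22, and edgeR's test gave an unadjusted p of 0.0394 (adjusted p = 0.9999). In the blocked fit, with pool as a term, the unadjusted p rose to 0.0802.

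H3 genes were close to the limit of detection. All 12 together had 8 control and 73 agonist reads in pool 2 and 15 and 10 in pool 3. Agonist replicate 2 stood apart, at 7.67 times its control per scaled library size (exact 95% interval 3.69 to 18.4, counting error only), while the ratio in pool 3 was 0.614 (0.247 to 1.46). Of the 73 reads, 34 lay on Hist1h3e and 15 on Hist1h3d, which had 1 to 4 reads in each other library. Hist1h3i had 4 control and 2 agonist reads in pool 2 and 0 and 1 in pool 3. No H3 gene passed the expression filter, so none was tested.

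H4 was the class with the most tested genes, 12 of 13. Hist1h4d (ENSMUSG00000061482.7, chromosome 13, 23581598 to 23582735, plus strand) led at 5.33 CPM per kilobase, with 324 control and 420 agonist reads in pool 2 and 295 and 175 in pool 3. Both the highest and the lowest library were agonist wells, and the log2 ratios were 0.12 in pool 2 and -0.86 in pool 3. Hist1h4i had 92 control and 235 agonist reads in pool 2 and 64 and 100 in pool 3, with log2 ratios of 1.08 and 0.51. The fit gave a log2 fold change of 0.91 (SE 0.65), with overlap between the groups.

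Hist1h4c had 100 control and 137 agonist reads in pool 2 and 42 and 101 in pool 3, with log2 ratios of 0.19 and 1.11. Hist4h4, the single gene of its cluster on chromosome 6, had 63 control and 111 agonist reads in pool 2 and 30 and 62 in pool 3, with ratios of 0.55 and 0.88. Both were nominally higher with agonist in each pool, with overlap between the groups because pool 3 was lower than pool 2 in both conditions. Hist1h4a had 6 control and 24 agonist reads in pool 2 and 4 and 18 in pool 3, and its groups did not overlap. In the fit the log2 fold change was 1.84 (SE 1.06). Hist2h4 went the other way, with 181 control and 154 agonist reads in pool 2 and 159 and 59 in pool 3. Both of its agonist levels, 2.96 and 1.04 CPM, were below the controls at 4.16 and 3.04 CPM, the upper one narrowly. The fitted log2 fold change was -0.85 (SE 0.64).

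No clustered histone gene passed the threshold of an adjusted p under 0.05 in the agonist comparison. Of the 69 genes, 27 passed the filter on low counts, namely 5 H1, 1 H2A, 9 H2B and 12 H4 genes. The remaining 42 had at most 39 reads over all libraries. The number called was 0 of 27, where 0% of the 18297 genes tested were called by edgeR in this comparison. DESeq2 called 0 of the 27 as well, and 7 of all genes. An unadjusted p under 0.05 was reached by 2 of 27, where 1.58% of all tested genes reached it. Both were lower with agonist and 0 were higher, where 0.94% of all were lower and 0.639% higher. In the fit blocked by pool, edgeR called 0 of the 27 again, where 0.00547% of all genes were called, and 1 of 27 had an unadjusted p under 0.05, where 3.53% of all genes did. That gene, Hist2h2be, was lower with agonist, as were 1.84% of all genes at this p, and 0 were higher, where 1.69% were. The tested histone genes had a median of 39.5 reads per library against 288 for all tested genes, which limits what can be detected.

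Among the 27 tested genes, the groups did not overlap for 3 that were higher with agonist, where 11.4% of all tested genes met that count, and for 4 that were lower, where 13.5% did. Those higher were Hist1h2bm, Hist1h4a and Hist1h4f, the last with 6 and 8 reads against 18 and 17 and named after its values were seen. Those lower were Hist1h1a, Hist1h2be, Hist2h2be and Hist2h4. Agonist was above control in both pools for 9 of 27 (21% of all tested genes) and below in both for 5 (27.8%), and the pools went opposite ways for 13.

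The pools differed in how the agonist wells stood to their controls. In pool 2, 21 of the 27 genes were higher with agonist, where 43.6% of all tested genes were, and the median log2 ratio was 0.73 against -0.09 over all genes. In pool 3, 10 of 27 were higher, where 49.2% of all were, and the median was -0.14 against 0 over all genes. A log2 ratio above 1 was seen in 13 of 27 genes in pool 2 (13.8% of all tested genes) and in 5 of 27 in pool 3 (5.67%). Agonist replicate 2 was the highest of the 4 libraries for 18 of 27 genes, where 25.7% of all tested genes had their highest value there. The shares over all genes were not matched for read number. The tested histone genes had a median of 39.5 reads per library against 288 for all, and ratios of low counts scatter more widely. The median fitted log2 fold change was 0.53 over the 27 genes and -0.05 over all genes, and without agonist replicate 2 it was -0.30 over the genes then tested. With 1 well per condition in each pool, the difference between the pools' responses was not tested.

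**Figure D5:**
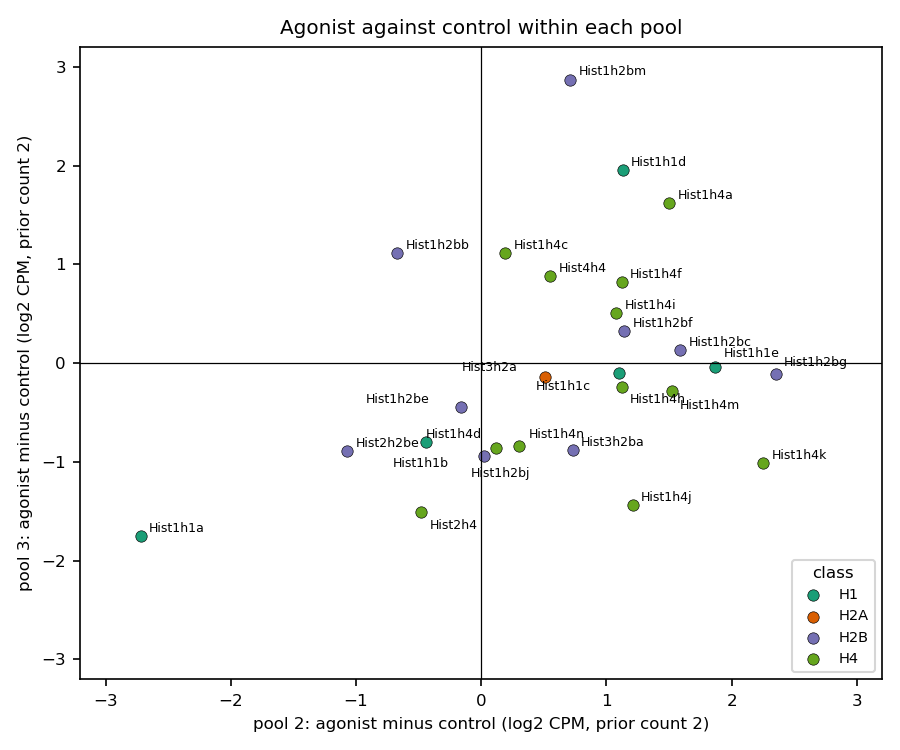
Agonist minus control in log2 CPM (prior count 2) for the 27 tested genes, with pool 2 on the horizontal and pool 3 on the vertical axis, coloured by class. Points at upper right are higher with agonist in both pools (9 genes) and points at lower left lower in both (5 genes). The other 13 lie in the quadrants where the pools disagree.

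By class, the log2 ratio of summed CPM was 0.92 in pool 2 and -0.11 in pool 3 for H1, and 0.36 and -0.35 for H4. For H2A it was 0.50 and -0.15, and for H2B 0.18 and -0.24. H3 had the widest spread at 2.93 and -0.70, on few reads. The 5 classes went up in pool 2 and down in pool 3, so that for none of them was the mean of the pools larger than the spread between them.

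Several replacement histone genes showed the same high value in agonist replicate 2. Cenpa stood at 48.0 and 49.1 CPM in the control and 125 and 41.5 CPM in the agonist libraries. H2afx, which encodes the H2A.X that is phosphorylated at DNA breaks, had 12 control and 87 agonist reads in pool 2 and 18 and 23 in pool 3. H1f0, the linker histone of resting cells, had 132 and 372 reads against 536 and 439, and H2afv, another H2A.Z gene, had 391 and 757 against 1065 and 863. Of the 10 replacement genes tested, 0 passed the threshold with edgeR or DESeq2 and 0 had an unadjusted p under 0.05. A log2 ratio above 1 was seen for 5 of them in pool 2 (13.8% of all tested genes) and for 1 in pool 3 (5.67%). Their medians were 0.61 in pool 2 and 0.08 in pool 3.

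Genes that make, process and handle histones were also set beside these values. Slbp, which binds the stem-loop, stood at 84.3 CPM (control) and 81.4 CPM (agonist) in pool 2 and at 105 and 106 CPM in pool 3. The fitted log2 fold change was -0.02 (SE 0.29). Npat, which drives transcription of clustered histone genes, had a fitted log2 fold change of 0.24 (SE 0.28). Of 26 tested genes of histone transcription and processing 0 passed the threshold with edgeR or DESeq2 and 0 had an unadjusted p under 0.05, with a median log2 fold change of 0.00. The smallest p in that list was for Sympk, a scaffold of the cleavage complex, at 20 and 28.3 CPM against 44.8 and 34.2 CPM. The fit gave a log2 fold change of 0.71 (SE 0.33). Of 20 histone chaperone genes 0 passed with either tool and 0 had an unadjusted p under 0.05, with a median of -0.15. Mcm2, a helicase subunit that also binds histones, had the smallest p at -0.44 (SE 0.32).

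S phase genes give the setting for histone synthesis. Of 30 such genes 0 passed the threshold with edgeR or DESeq2, 1 had an unadjusted p under 0.05, and the median log2 fold change was 0.11. Gins1, a subunit of the replication helicase, had 42 control and 129 agonist reads in pool 2 and 65 and 212 in pool 3, above the controls in both pools. The fitted log2 fold change was 1.49 (SE 0.54), and edgeR's p was 0.0325 before and 0.9999 after adjustment. Cdc45, a gene of the same list, had 301 control and 530 agonist reads in pool 2 and 337 and 684 in pool 3. Both of its agonist levels in CPM were above both controls, with a fitted log2 fold change of 0.74 (SE 0.36). Rrm2, which makes deoxyribonucleotides, had 245 control and 1182 agonist reads in pool 2 and 1038 and 1300 in pool 3, and Mcm6, another helicase subunit, had 438 and 1179 against 1982 and 1122. In both of these control replicate 2 was the lowest library.

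Between pools, wells of pool 3 stood below those of pool 2 for 20 of the 27 genes, where 50.4% of all tested genes did. A library of pool 3 was the lowest of the 4 for 17 of 27 genes, where 44.6% of all were lowest there. The median log2 difference of pool 3 against pool 2, with treatment in the fit, was -0.68, against -0.0061 over all genes. The number past the threshold was 0 of 27, where 0.394% of all genes were called by edgeR, and DESeq2 called 0 of the 27 too. At an unadjusted p under 0.05, 2 were lower in pool 3 and 1 higher, where 7.71% and 6.15% of all tested genes were. Hist1h1d was lower in pool 3 by a log2 difference of -3.06 (SE 0.87, adjusted p = 0.1536 in edgeR). For Hist1h1b the difference was -1.51 (SE 0.58, adjusted p = 0.2916 in edgeR), and for Hist1h4d it was -0.89 (SE 0.41, adjusted p = 0.3751 in edgeR). Hist1h2bc was the one higher in pool 3, by 1.11 (SE 0.42, adjusted p = 0.2771 in edgeR). Each arm holds 1 pool, and the p-values reflect wells of the same cells, not different pools.

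Markers of other cells differed between the pools as well. T cell markers had a median log2 difference of -1.12 in pool 3 against pool 2, macrophage markers -0.65 and B cell markers -0.56, whereas S phase genes had 0.43. Their part in the histone values was not tested. The label of CD11c+ dendritic cells can be set against the same libraries. All 13 dendritic cell markers were read in every library, with sums of 27600 and 25800 CPM in the control and 24100 and 28900 CPM in the agonist libraries. Itgax, which encodes CD11c, stood at 189 and 105 CPM against 178 and 95.5 CPM. Macrophage markers summed to 3070 to 5590 CPM, NK cell markers to 133 to 168 CPM, neutrophil markers to 6.43 to 16 CPM with Ly6g at 0 reads, and erythroid markers to 0.938 to 5.15 CPM. Of each of these marker lists 0 genes passed the threshold in the unblocked agonist comparison with edgeR. At an unadjusted p under 0.05 in that comparison there were 2 plasma cell genes, both lower, and 1 macrophage gene, Mertk, higher. DESeq2 called 2 plasma cell genes, Igha and Jchain, and edgeR with the pool as a block called Igha.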

How the data were processed

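RNA from 4 wells was sequenced, 2 control and 2 agonist, with 43238375 to 59902172 reads in genes per library. The authors deposited raw counts, whole numbers of reads for each gene. STAR 2.7, HTSeq 0.11.1 and GRCm38 (mm10) are named per the submitters' processing notes, and no strand setting is named there. Per the file's own summary lines, reads outside genes (16% to 20%), in several genes or aligned to several places were not assigned to a gene, and these lines were left out of library sizes.

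Members and gene lists were chosen with earlier results of these data known, so counts over them describe these libraries only. Counts were analysed with edgeR 4.0.16 in R 4.3.3. Genes passing filterByExpr (minimum count 10) were kept, library sizes were TMM-scaled (factors 0.947 to 1.05), and group was the single term of a quasi-likelihood test (two-sided) over all 18297 genes, with Benjamini-Hochberg adjustment and a threshold of 0.05. The comparison of pools had pool and group as terms. Standard errors were derived from the F statistic and the fold change. CPM are TMM-scaled, and single-library log2 CPM used a prior count of 2. Per-kilobase levels divide CPM by the union of exons. Class sums are given as descriptions with no test. The protocol divided each sample's cells between wells, and same-numbered libraries deviated together from their group means (r = 0.288 across genes), so 1 alternative took the pool as a block. The others were DESeq2 1.42.0, its size factors, total counts, other filters, each library left out, and class sums without the top gene. The script was tested on simulated data.

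Coordinates, transcripts, 50-base words, stem-loops and overlaps came from GENCODE M21, and promoter windows from RefSeq (GRCm38.p6). Named genes were, per class, the 3 with the highest CPM per kilobase, the 8 tested members with the smallest p in the agonist fit, the 4 with the smallest p between pools, Hist1h1c, Hist2h2be, Hist1h2bc, Hist3h2a, Hist4h4 and Hist2h2aa1, and up to 4 genes per list, with Slbp and Npat. Other genes, including Hist1h2be, Hist1h4f, Hist1h4j, Hist1h2aa, Hist1h2ae, Hist2h2ac, H3f3b, H2afz, Xist, Ddx3y and Trim17, were chosen after their values were seen. Figures were drawn with matplotlib 3.10.9.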

Additional observations from a re-analysis of the deposited data

Results flagged for a closer look

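Hist3h2bb-ps, the histone row left out because its symbol marks a pseudogene, had 52 reads in total. There were 7 and 6 in control replicates 2 and 3 and 18 and 21 in agonist replicates 2 and 3, which is above the 3 reads that a count of 0 allows in every library. It was not part of any comparison.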

How the results depend on the processing

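No clustered histone gene passed the threshold under any alternative in either comparison, including DESeq2, no filter, a minimum count of 30 and the replicate block. At an unadjusted p under 0.05 the agonist comparison gave 2 genes with TMM, DESeq2 size factors and total counts. It gave 1, Hist2h2be, with no filter, a minimum count of 30, DESeq2 and the replicate block in either tool. With a library left out, 1 group holds 1 library, and Hist2h2be did not reach that p. The genes that did changed with the library and in direction. They included Hist1h2bc (log2 fold change 1.88, without control replicate 3), Hist1h1e (2.22, without agonist replicate 3) and Hist2h4 (-1.75, without agonist replicate 2). The median log2 fold change of tested members ranged from -0.30 (without agonist replicate 2) to 0.81 (without agonist replicate 3) when each library was left out. With the replicate block, Hist3h2ba turned from 0.19 to -0.09, and also turned negative in DESeq2 with the block. The clustered histone genes named by the rule changed sign only when a library was left out, and the cause was not tested. Over the 4 libraries left out in turn, Hist1h1c ranged from -0.01 (without agonist replicate 2) to 1.04, Hist1h1e from -0.34 (without agonist replicate 2) to 2.22 and Hist1h4d from -1.05 to 0.30 (without agonist replicate 3). Hist1h1b ranged from -1.61 to 0.24 (without control replicate 2) and gave 0.06 without agonist replicate 3. Hist3h2a ranged from -0.26 (without control replicate 2) to 0.71 and gave -0.01 without agonist replicate 3. Hist1h2bc ranged from -0.05 (without control replicate 2) to 1.88. Hist2h2be kept its direction, between -1.05 and -0.90, with unadjusted p from 0.0788 to 0.12 in edgeR. For H2B the mean of the pools' log2 ratios was -0.03, and -0.57 without Hist1h2bc. The same value for H2A without Hist3h2a could not be given, because agonist replicate 3 then has 0 reads. The comparison of the pools was not run with a library left out, since no residual degrees of freedom remain. DESeq2 called 706 genes of all between pools where edgeR called 72, and the cause was not tested. Depth limits most of the group, since 42 of 69 genes were not tested.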
